A study of Saccharomyces cerevisiae with 36 samples.

Results

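Bcl-2 and Bcl-xL are anti-apoptotic proteins of the Bcl-2 family. They were followed here as binding partners in a yeast 2-hybrid screen read out by sequencing. The members were taken by name, as every row and column called Bcl-2 or Bcl-xL in the count matrices of 4 library sets, which makes 2 of the 527 protein names in the series. In each matrix a row protein met a column protein, and the row protein is named first in a pair (alphaBCL2 with Bcl-2). The sources used here do not say which axis held the DNA-binding fusion. The 4 sets share 15 proteins. They are 6 homologues (Bcl-2, Bcl-xL, Bcl-B, Bcl-w, Bfl-1 and Mcl1[151-321]) and 9 designed inhibitors. Each member therefore has 29 ordered pairs, its homodimer included, and 56 of the 225 shared pairs hold Bcl-2, Bcl-xL or both.

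The libraries after selection came from yeast grown without tryptophan and histidine, with 1 mM 3-AT by the sample descriptions, although the protocol they share states 3 mM. 3-AT competitively inhibits the enzyme of histidine synthesis that HIS3 encodes. The libraries before selection came from the same transformed yeast grown without tryptophan but with histidine. A single strain served for all 8 libraries, a haploid of mating type MATa. It lacks its own HIS3 (his3-delta) and carries pGAL6z-HIS3 at leu2 as the reporter. Its other listed alleles are trp1, ura3-52, can1, leu2-delta200, pep4::BleoMX, AGA1::GAL1-AGA1::URA3, GAL and prbd1.6R, and all groups share them. Bcl sets 1 and 2 (L45 and L66) are the small pool of homologues and inhibitors, and DHD sets 1 and 2 (L44 and L49) hold the same proteins among 337, most of them designed heterodimers. The labels call the DHD sets biological replicates. They give no replicate for the Bcl pool, whose sets were taken as replicates, so its p-values measure the spread between these sets and this may be technical. Mcl1[151-321] is by its name a fragment of Mcl1. Nothing in the labels says whether Bcl-2 and Bcl-xL were full length.

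Anti-apoptotic Bcl-2 family proteins hold a groove on their surface that takes up the BH3 helix of pro-apoptotic relatives and so restrains the permeabilisation of the outer mitochondrial membrane. Bcl-2 and Bcl-xL are close relatives in this family, and Bcl-w, Bcl-B, Bfl-1 and Mcl1 complete its anti-apoptotic side. Designed inhibitors are helical proteins made to occupy that groove. By name, alphaBCL2 is directed at Bcl-2 and alphaBCLB, alphaBFL1 and alphaMCL1 at other homologues. The names 2CDP06, BCDP01, BECM01, FECM04 and XCDP07 spell out no homologue, and what they were designed against was not used here. Some of them may therefore have been designed against a member.

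Each protein was counted through its DNA barcode, and every count below is the number of reads that paired 2 such barcodes. The barcodes are shown because the pools used different ones: the values of Bcl-2 and Bcl-xL in the Bcl sets and in the DHD sets rest on unrelated tags of 20 and 10 bases. Each stood for 1 protein name in its map. They are written as the deposited maps give them, taken as 5′ to 3′. All letters are capitals because the whole barcode is what was read.
Bcl-2, Bcl sets: GTCCTTAAACGTAAGGGAAC
Bcl-xL, Bcl sets: GCTCCAACACGGAGTGCCTG
Bcl-2, DHD sets: GGCGGAGGAT
Bcl-xL, DHD sets: GAGAATCCAT
The barcodes of the inhibitors that the results turn on follow, first those enriched with a member and then those of alphaMCL1 and alphaBCL2.
BCDP01, Bcl sets: CATGCCGCGATAACCTGCTA
FECM04, Bcl sets: ATCCCCAGTGATTAGTTACT
XCDP07, Bcl sets: GTTGAGGAGAGCGATTTCCA
alphaBFL1, Bcl sets: TCGTAGCAGGCGACTGTACC
alphaMCL1, Bcl sets: AGGTTCCCGCTTCACTAATC
alphaBCL2, Bcl sets: CCGCAGAAGCCTAATGAGAG

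Depth differed widely between the sets. In the order Bcl set 1, Bcl set 2, DHD set 1 and DHD set 2, which is kept for all values below, the libraries held 2304920, 521085, 34925075 and 3959528 reads after selection, against 2564663, 508736, 33394129 and 4057624 before. Before selection a pair of Bcl-2 as row protein had a median of 4774, 1300, 689 and 52 reads, and one of Bcl-xL 2974, 1900, 586 and 30. The values of DHD set 2 are therefore the least precise. No molecular identifiers were used on the PCR products, and reads are not independent molecules. Over all pairs of a set the median log2 change, computed from each pair's share of the library with 1 read added, was -1.60, -2.09, -2.77 and -2.29.

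With both members the highest changes came from inhibitors. With the other homologues no value lay above 0: 0 of 40 for Bcl-2 and 0 of 40 for Bcl-xL, over 10 ordered pairs and 4 sets each. With the 9 inhibitors, 36 of 72 values were above 0 for Bcl-2 and 34 of 72 for Bcl-xL. The highest inhibitor values were 4.77 for Bcl-2 (alphaBCL2 with Bcl-2, DHD set 1) and 6.22 for Bcl-xL (XCDP07 with Bcl-xL, DHD set 1). In all shared pairs 20.9%, 24.0%, 31.1% and 20.9% of values were above 0. Where 0 lies depends on the scaling. With the total of the shared proteins in place of the library total, 27 of 72 inhibitor values were above 0 for Bcl-2 and 27 of 72 for Bcl-xL, and homologue values stayed at 0 of 40 for each. Relative to the median of all pairs these were 48 and 48 of 72, with 19 of 40 homologue values above 0 for Bcl-2 and 18 of 40 for Bcl-xL.

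**Figure D1:**
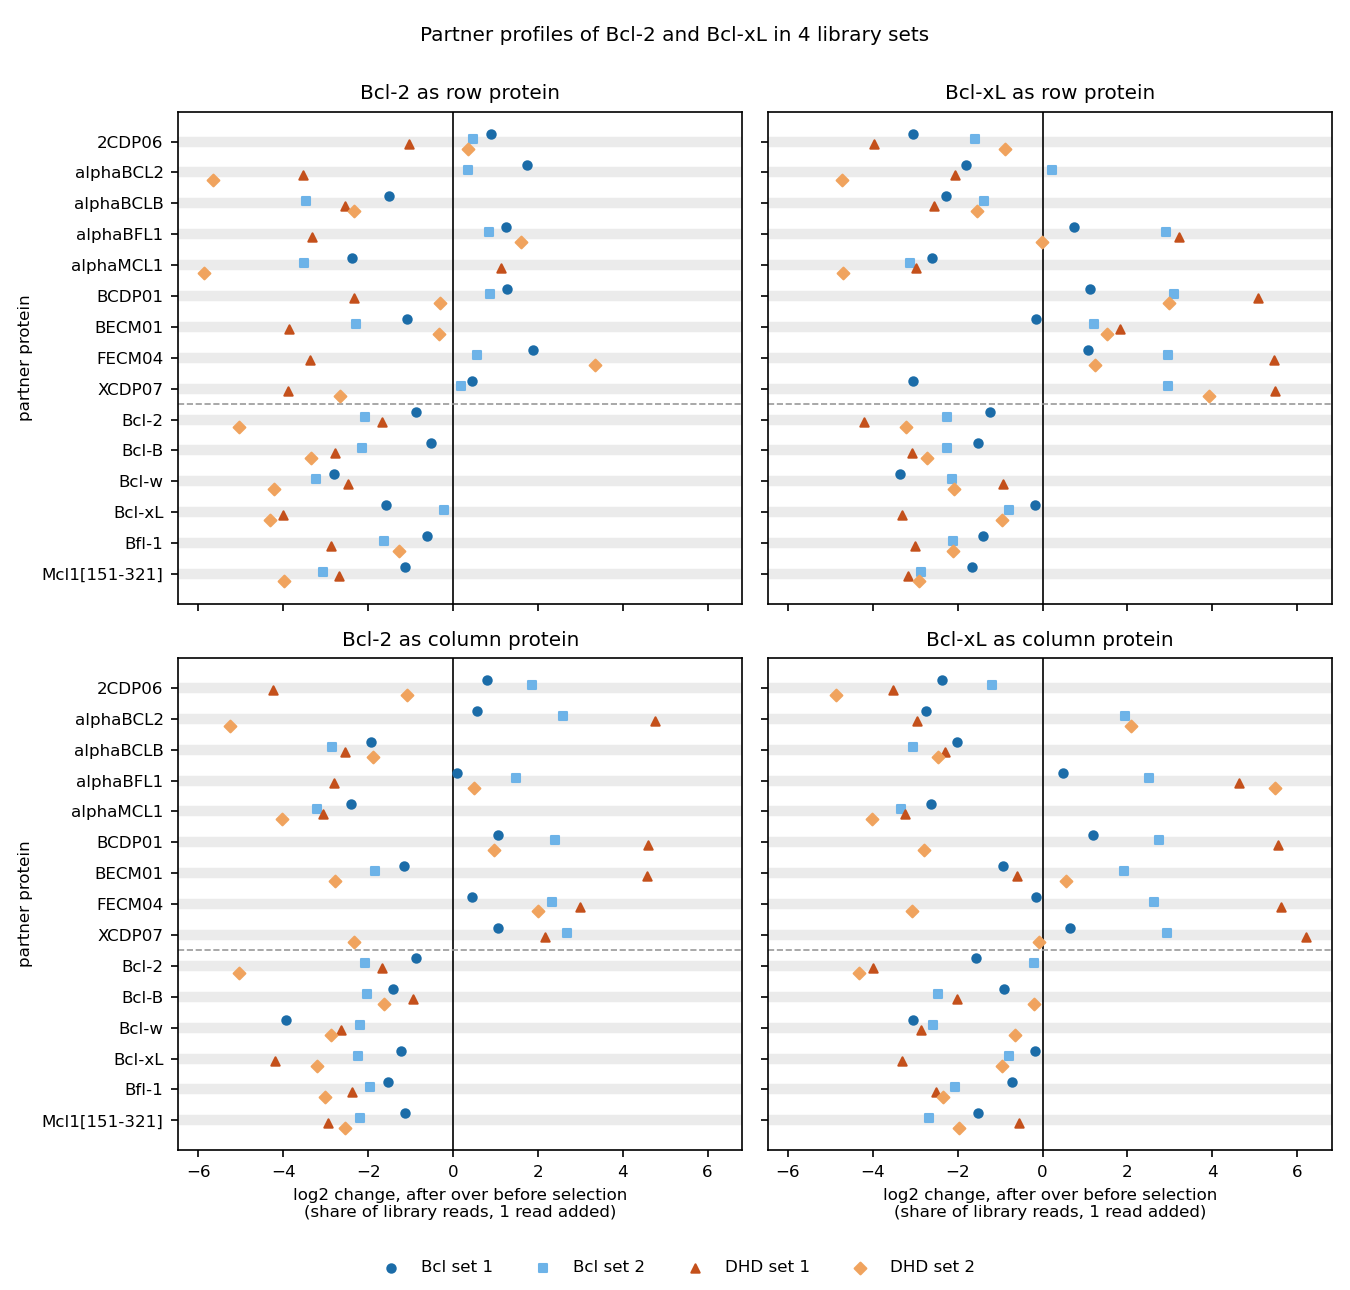
Log2 change (horizontal axis, after over before selection) of each partner (vertical axis) with Bcl-2 at left and Bcl-xL at right, as row protein in the upper and column protein in the lower panels. Each symbol is 1 library set, inhibitors stand above the dashed line and homologues below it, and each homodimer is drawn in both orientations; no homologue value lies above 0.

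The change was tested over the 4 sets with edgeR's quasi-likelihood test, with the library set as a block and TMM factors. The zero of the fit comes from TMM on the reads of the 15 shared proteins, that of the set values from the library total. A fitted value can therefore lie outside the range of its set values. A pair is called enriched or depleted at a Benjamini-Hochberg adjusted p under 0.05. Of the 225 shared pairs 12.4% were enriched and 16.4% depleted. Of the 56 pairs with a member 7 were enriched and 5 depleted, an enriched share close to that background and a depleted share under it, with no test between them. Bcl-2 had 2 enriched and 3 depleted pairs of 29, and Bcl-xL 5 and 2 of 29. All 7 enriched pairs held an inhibitor, but this was the rule in the whole pool. Each of the 28 enriched pairs among the 225 joined a homologue and an inhibitor, and 0 of the 81 pairs between inhibitors were enriched. Of 18 inhibitor pairs each, 2 were enriched with Bcl-2 and 5 with Bcl-xL, against 8 with Bcl-B, 7 with Bfl-1, 6 with Mcl1[151-321] and 0 with Bcl-w. The median fitted log2 change was 1.05 for Bcl-2 and 1.83 for Bcl-xL over 18 inhibitor pairs each, and -1.19 and -1.17 over 10 homologue pairs each, against -0.71 over all 225. Pairs that hold 1 protein in common are not independent.

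Of the inhibitors enriched with Bcl-xL, alphaBFL1, named for Bfl-1, had the highest fitted value. As alphaBFL1 with Bcl-xL it had 3875, 10206, 10911 and 1663 reads after selection, against 3066, 1751, 420 and 37 before. The log2 changes were 0.49, 2.51, 4.63 and 5.49, all above 0, and lowest in Bcl set 1. The fit gave 4.41 ± 1.19 (SE, n = 4 sets; adjusted p = 0.00301 in edgeR's test). With the fusions swapped, Bcl-xL with alphaBFL1 lay at 0.75, 2.91, 3.22 and -0.01, a fit of 2.90 ± 1.22 that missed the threshold (adjusted p = 0.0602 in edgeR's test). With Bcl-2 the same inhibitor reached 1.24 ± 1.16 as row protein and 1.71 ± 1.33 as column protein, neither past the threshold.

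BCDP01 was enriched with both members, with each in 1 orientation. Bcl-xL with BCDP01 had 5946, 12564, 20911 and 284 reads after selection, against 3051, 1427, 586 and 36 before. Its log2 changes of 1.12, 3.10, 5.09 and 2.98 were above 0 in every set, with a fit of 4.25 ± 1.16 (SE, n = 4 sets; adjusted p = 0.00313 in edgeR's test). BCDP01 with Bcl-2 had 9433, 9039, 7381 and 238 reads after selection, against 5000, 1663, 290 and 125 before. It too was above 0 in every set, at 1.07, 2.41, 4.60 and 0.96, with a fit of 3.40 ± 1.23 (adjusted p = 0.0265 in edgeR's test). The swapped pairs agreed in part: BCDP01 with Bcl-xL lay at 1.19, 2.75, 5.56 and -2.80, and Bcl-2 with BCDP01 at 1.27, 0.88, -2.33 and -0.31.

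FECM04 gave the same picture of 1 called orientation per member. Bcl-xL with FECM04 had 5599, 14271, 24156 and 75 reads after selection, against 2974, 1801, 523 and 32 before, or log2 changes of 1.07, 2.95, 5.46 and 1.24. The fit was 3.80 ± 1.15 (SE, n = 4 sets; adjusted p = 0.00740 in edgeR's test). FECM04 with Bcl-2 had 3407, 7755, 1882 and 263 reads after selection, against 2777, 1498, 225 and 66 before, or log2 changes of 0.45, 2.34, 2.99 and 2.01, with a fit of 3.12 ± 1.19 (adjusted p = 0.0338 in edgeR's test). These 4 pairs with BCDP01 and FECM04 and alphaBFL1 with Bcl-xL were the 5 of 56 member pairs above 0 in all 4 sets. That share is close to the background, since 21 of the 225 shared pairs (9.33%) were. It also depends on the scaling. With the total of the shared proteins, 0 inhibitor pairs of Bcl-2 and 1 of Bcl-xL were above 0 in all sets. Relative to the median of all pairs, 4 and 7 were. The swapped pairs with FECM04 each had a set below 0. FECM04 with Bcl-xL was at -0.16, 2.64, 5.62 and -3.08, and Bcl-2 with FECM04 at 1.89, 0.57, -3.36 and 3.35.

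XCDP07 was enriched with Bcl-xL in both orientations, although each had 1 set below 0. XCDP07 with Bcl-xL had 3030, 3732, 21495 and 12 reads after selection, against 2145, 472, 275 and 13 before. Its log2 changes were 0.65, 2.95, 6.22 and -0.07, with a fit of 3.52 ± 1.33 (SE, n = 4 sets; adjusted p = 0.0328 in edgeR's test). Bcl-xL with XCDP07 had 359, 5708, 12314 and 103 reads after selection, against 3323, 717, 261 and 6 before. Here Bcl set 1 stood alone below 0, at -3.05, and the others were at 2.96, 5.49 and 3.93, with a fit of 4.14 ± 1.60 (adjusted p = 0.0365 in edgeR's test). With Bcl-2 neither orientation passed. XCDP07 with Bcl-2 lay at 1.06, 2.69, 2.17 and -2.34, the last from 4 reads after and 25 before selection. Bcl-2 with XCDP07 lay at 0.45, 0.19, -3.90 and -2.67.

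alphaBCL2, the only inhibitor whose name spells out a member, was called with neither. alphaBCL2 with Bcl-2 had 3522, 8719, 6307 and 0 reads after selection, against 2649, 1409, 220 and 38 before. The log2 changes were 0.56, 2.59, 4.77 and -5.25, so the 3 sets with more reads per pair were above 0 and DHD set 2, with no read left, below it. The fit was 2.58 ± 1.53 (SE, n = 4 sets; adjusted p = 0.178 in edgeR's test). Bcl-2 with alphaBCL2 had 12761, 1816, 33 and 0 reads after selection, against 4244, 1396, 373 and 51 before, and was above 0 in the Bcl sets alone (1.74 and 0.34, against -3.52 and -5.67 in the DHD sets). Its fit was -0.50 ± 1.16. Values from 0 reads rest on the added read. With Bcl-xL, alphaBCL2 lay at -2.76, 1.94, -2.96 and 2.08 as row protein and at -1.80, 0.23, -2.06 and -4.72 as column protein, with fits of 0.79 ± 1.40 and -0.79 ± 0.81. Over these 4 pairs the sets did not share a direction.

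The depleted pairs held alphaMCL1, named for Mcl1, or Bcl-w. Neither was depleted with the members alone. As row protein alphaMCL1 was also depleted with Bcl-w (-2.62 in the fit), 2CDP06 (-2.20), alphaBCL2 (-2.64), alphaBFL1 (-2.07) and itself (-1.91). With Mcl1[151-321] it was enriched (4.16). Bcl-w had 7 depleted pairs of 29, those with Bcl-2 included. alphaMCL1 with Bcl-2 lay at -2.40, -3.20, -3.07 and -4.02, and fell by 2.07 ± 0.75 in the fit (adjusted p = 0.0265 in edgeR's test, n = 4 sets). alphaMCL1 with Bcl-xL lay at -2.62, -3.34, -3.23 and -4.01 and fell by 2.22 ± 0.76 (adjusted p = 0.0178). Bcl-xL with alphaMCL1 lay at -2.60, -3.12, -2.98 and -4.69 and fell by 2.19 ± 0.68 (adjusted p = 0.00907). In these 3 pairs every set was below its median over all pairs, which in DHD set 1 does not hold for the called pairs with Bcl-w. The remaining orientation, Bcl-2 with alphaMCL1, was not called: DHD set 1 was at 1.13 (1777 reads after, 775 before) while the others were at -2.37, -3.51 and -5.87. Bcl-2 with Bcl-w lay at -2.79, -3.23, -2.47 and -4.23, and fell by 2.05 ± 0.66 in the fit (adjusted p = 0.0105 in edgeR's test). Bcl-w with Bcl-2 lay at -3.94, -2.18, -2.63 and -2.87, and fell by 1.92 ± 0.70 in the fit (adjusted p = 0.0286 in edgeR's test). Bcl-w-trunc, which Bcl set 2 alone holds, was at -2.93 and -2.57 with Bcl-2 as row and column protein and at -2.87 and -2.79 with Bcl-xL.

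**Figure D2:**
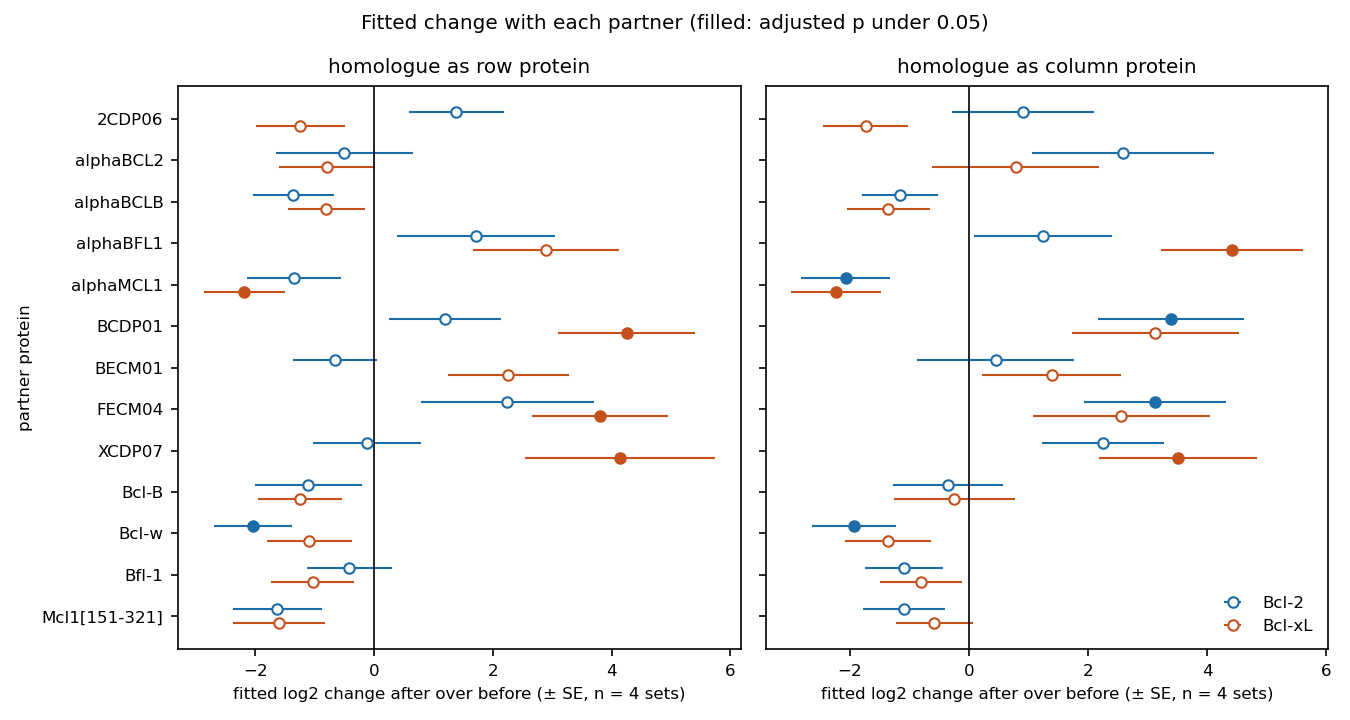
Fitted log2 change after over before selection (horizontal axis, point ± SE over 4 library sets) for Bcl-2 (blue, upper point) and Bcl-xL (orange, lower point) with each partner they share, as row protein at left and column protein at right. Filled points passed the threshold; the 7 filled points right of 0 all belong to inhibitors.

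Among the homologues, Bcl-2 and Bcl-xL met each other with values below 0 in each set. Bcl-2 with Bcl-xL lay at -1.57, -0.20, -4.01 and -4.32, and Bcl-xL with Bcl-2 at -1.23, -2.24, -4.20 and -3.21. The homodimers were below 0 too. Bcl-2 with Bcl-2 lay at -0.87, -2.07, -1.68 and -5.05, the last from 0 reads after and 33 before selection. Bcl-xL with Bcl-xL was thinly covered, with 44, 448, 25 and 0 reads after selection, against 56, 754, 245 and 1 before, and lay at -0.19, -0.78, -3.31 and -0.96. None of these 4 pairs passed the threshold in edgeR's test. The 12 pairs of the members with Bcl-B, Bfl-1 and Mcl1[151-321] had fitted values between -1.63 and -0.24, and those of Bcl-xL with Bcl-w -1.09 and -1.35 as row and column protein, with none called. The spread between sets was smaller with homologues (median SD 0.87 for Bcl-2 and 0.94 for Bcl-xL) than with inhibitors (median SD 1.99 and 1.61, n = 4 sets).

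Ranked by the mean over the 4 sets, FECM04, BCDP01, XCDP07 and alphaBFL1 were among the 5 highest partners of each member in either orientation. As column protein Bcl-2 had BCDP01 (2.26 ± 1.69, SD, n = 4 sets), FECM04 (1.95 ± 1.08), XCDP07 (0.89 ± 2.26), alphaBCL2 (0.67 ± 4.30) and alphaBFL1 (-0.18 ± 1.84) at the top, and Bcl-xL (-2.72 ± 1.28), Bcl-w (-2.91 ± 0.75) and alphaMCL1 (-3.18 ± 0.67) at the bottom. As row protein its highest were FECM04 (0.61 ± 2.88), 2CDP06 (0.17 ± 0.84), alphaBFL1 (0.10 ± 2.29), BCDP01 (-0.12 ± 1.62) and XCDP07 (-1.48 ± 2.14), and its lowest alphaMCL1 (-2.66 ± 2.92), Mcl1[151-321] (-2.72 ± 1.18) and Bcl-w (-3.18 ± 0.77). For Bcl-xL as column protein the order began with alphaBFL1 (3.28 ± 2.24), XCDP07 (2.44 ± 2.83), BCDP01 (1.67 ± 3.49), FECM04 (1.26 ± 3.73) and BECM01 (0.24 ± 1.30), and ended with Bcl-2 (-2.52 ± 1.98), 2CDP06 (-2.99 ± 1.57) and alphaMCL1 (-3.30 ± 0.57). As row protein it began with BCDP01 (3.07 ± 1.62), FECM04 (2.68 ± 2.04), XCDP07 (2.33 ± 3.74), alphaBFL1 (1.72 ± 1.59) and BECM01 (1.10 ± 0.87), and ended with Mcl1[151-321] (-2.65 ± 0.67), Bcl-2 (-2.72 ± 1.28) and alphaMCL1 (-3.35 ± 0.92). Neighbours in these orders mostly did not differ beyond their spread. With the homodimers left out, of 13 steps in each order the number larger than the smaller SD of the 2 neighbours was 2 and 0 for Bcl-2 as column and row protein, and 0 and 1 for Bcl-xL.

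The orientations of a pair agreed in some sets and not in others. Over the 13 partners both members share, the log2 changes of Bcl-2 as row and as column protein correlated with r = 0.92 in Bcl set 1, 0.96 in Bcl set 2, -0.53 in DHD set 1 and 0.85 in DHD set 2. For Bcl-xL these were 0.68, 0.96, 0.94 and 0.05. Row and column values of a set come from the same libraries, so these coefficients are descriptions. In DHD set 1 Bcl-2 as row protein stood apart: 1 of 9 inhibitors was above 0, alphaMCL1, against 5 of 9 as column protein. There BECM01 with Bcl-2 had 14043 reads after and 566 before selection, a log2 change of 4.57, while Bcl-2 with BECM01 had 58 after and 826 before, at -3.87. The cause of the split was not tested.

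**Figure D3:**
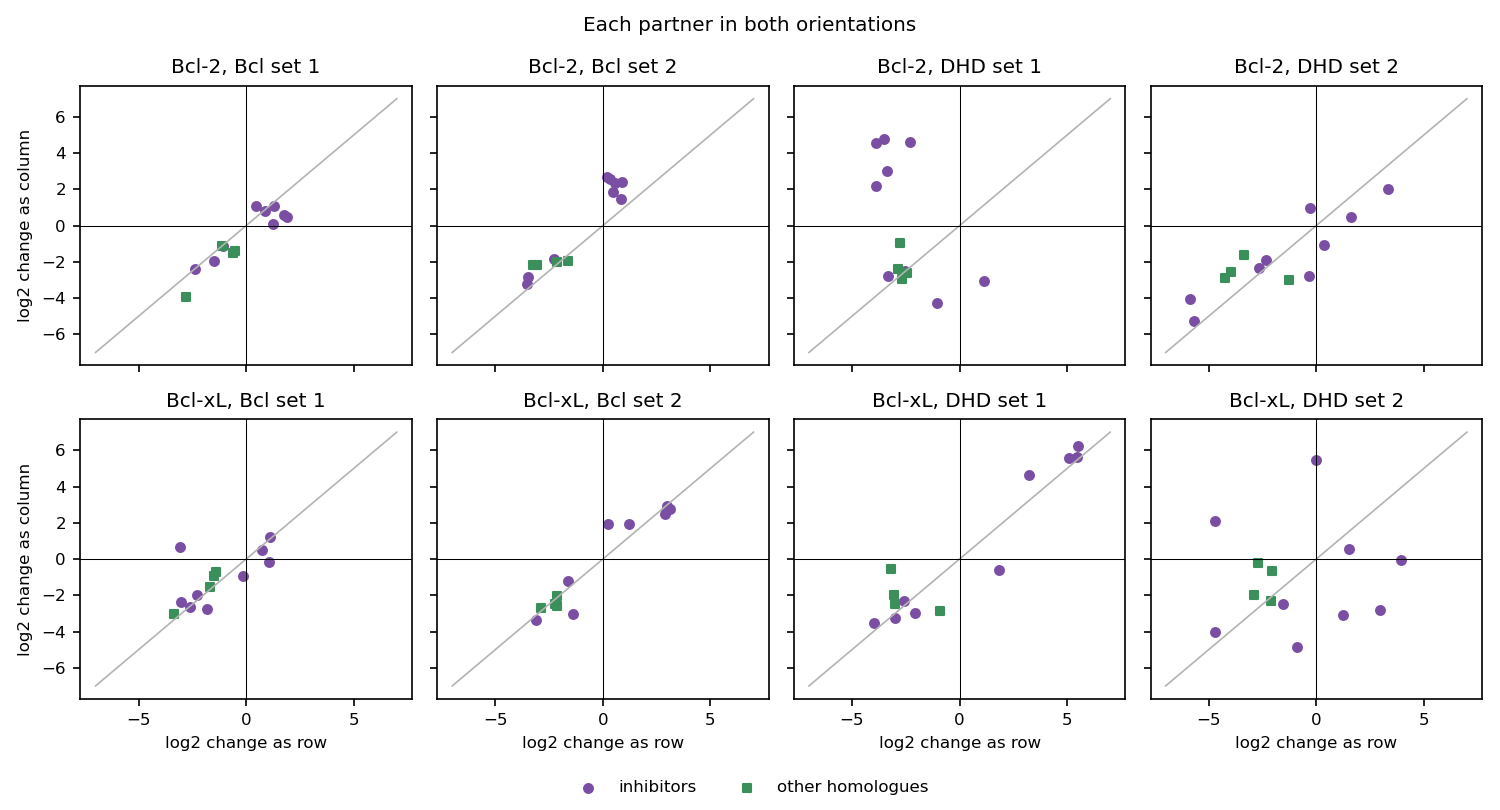
Log2 change of each partner with the member as row protein (horizontal axis) and as column protein (vertical axis), for Bcl-2 in the upper and Bcl-xL in the lower panels, 1 library set per column. Points on the grey diagonal have the same value in both orientations; in DHD set 1 the inhibitors of Bcl-2 leave the diagonal, with 5 of 9 above 0 as column protein and 1 of 9 as row protein.

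Over the 26 combinations of partner and orientation, agreement between sets was closest for Bcl-2 between the Bcl sets (r = 0.82) and for Bcl-xL between Bcl set 2 and DHD set 1 (r = 0.85). It was lowest for Bcl-2 between the DHD sets (r = -0.04) and for Bcl-xL between Bcl set 1 and DHD set 2 (r = 0.33). In the mean profile over the Bcl sets (13 partners), the protein most like Bcl-2 was Bcl-xL in either orientation, with r = 0.79 as column and 0.72 as row protein, followed by Bcl-w with 0.61 and 0.72. For Bcl-xL as column protein Bcl-2 (0.79) came before Bfl-1 (0.72), and as row protein Bfl-1 (0.82) came before Bcl-2 (0.72). These proteins were read from the same libraries and share partners.

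The members were then compared directly, as Bcl-2 minus Bcl-xL with the same partner, in a fit of homologue by selection over the 4 sets. Of 26 differences 0 passed (0.0%) in edgeR's quasi-likelihood test with Benjamini-Hochberg adjustment. At an unadjusted p under 0.05 there was 1 with Bcl-2 higher and 1 with Bcl-xL higher, and limma on the per-set differences gave the same 3 counts. This does not show that the members act alike, since SEs ran from 0.75 to 2.87 and several fitted differences were beyond a log2 of 2 in size. The median of the mean difference was -0.22.

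The partner on the side of Bcl-2 was 2CDP06. As column protein it had 8438, 1291, 132 and 65 reads with Bcl-2 after selection and 5066, 912, 261 and 52 before. With Bcl-xL it had 316, 627, 18 and 9 after and 2924, 1859, 285 and 18 before. Bcl-2 was higher in all 4 sets, by 3.94, 2.07, 2.93 and 1.24, and the fitted difference was 2.59 ± 1.29 (SE, 4 sets). In edgeR's test the p was 0.0470 and the adjusted p 0.468. With the homologue by library set added as a replicate block the adjusted p was 0.0248, and with each set's median difference subtracted it was 0.0330. As row protein 2CDP06 was 3.18, 3.06 and 3.78 higher with Bcl-2 in 3 sets and at -0.74 in DHD set 1, with a fit of 2.69 ± 1.48 (adjusted p = 0.468 in edgeR's test).

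On the side of Bcl-xL stood BECM01 as column protein. It had 2030, 255, 58 and 31 reads with Bcl-2 after selection and 4774, 1222, 826 and 40 before. With Bcl-xL it had 1517, 3595, 2864 and 103 after and 1878, 1506, 775 and 36 before. The differences of -0.93, -3.51, -5.69 and -1.85 all had Bcl-xL higher, with a fit of -3.04 ± 1.25 (SE, 4 sets). In edgeR's test the p was 0.0158 and the adjusted p 0.412. The swapped pair turned in DHD set 1, at -0.22, -3.76, 5.16 and -3.34.

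XCDP07 as column protein had the largest fitted difference, -4.01 ± 2.04 (adjusted p = 0.468 in edgeR's test), and depended on Bcl set 1. Set by set it lay at 3.51, -2.77, -9.39 and -6.59. Without Bcl set 1 the fit gave -6.49 with an adjusted p of 0.00104, and BECM01 as column protein -3.73 with one of 0.0189. alphaBFL1 as row protein was lower with Bcl-2 in all 4 sets, at -0.41, -1.02, -7.43 and -5.00, and its fit of -3.06 ± 2.38 missed the threshold (adjusted p = 0.752 in edgeR's test). Bfl-1 as column protein was slightly higher with Bcl-2 in all 4 sets (0.79, 0.49, 0.11 and 0.84). These 2 and the column-protein cases of 2CDP06 and BECM01 were the 4 of 26 combinations whose sign held in every set. Of them 2 had Bcl-2 higher and 2 had Bcl-xL higher. The count was not tested against chance, which alone gives some combinations with 1 sign over 4 sets. With alphaBCL2 neither difference passed in edgeR's test, and SEs of this size do not show that the members act alike with it. As row protein its difference was 3.32, 0.65, 7.73 and -7.33, with a fit of 1.29 ± 2.87 (SE, 4 sets). The value of -7.33 rests on 0 reads after and 38 before selection with Bcl-2, against 61 and 14 with Bcl-xL. As column protein the difference was 3.54, 0.12, -1.46 and -0.95, with a fit of 0.38 ± 1.33. Bcl-2 was thus higher in both Bcl sets in either orientation, and in the DHD sets the sign varied. With alphaMCL1 as row protein, depleted with both, the difference lay between -0.01 and 0.22.

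**Figure D4:**
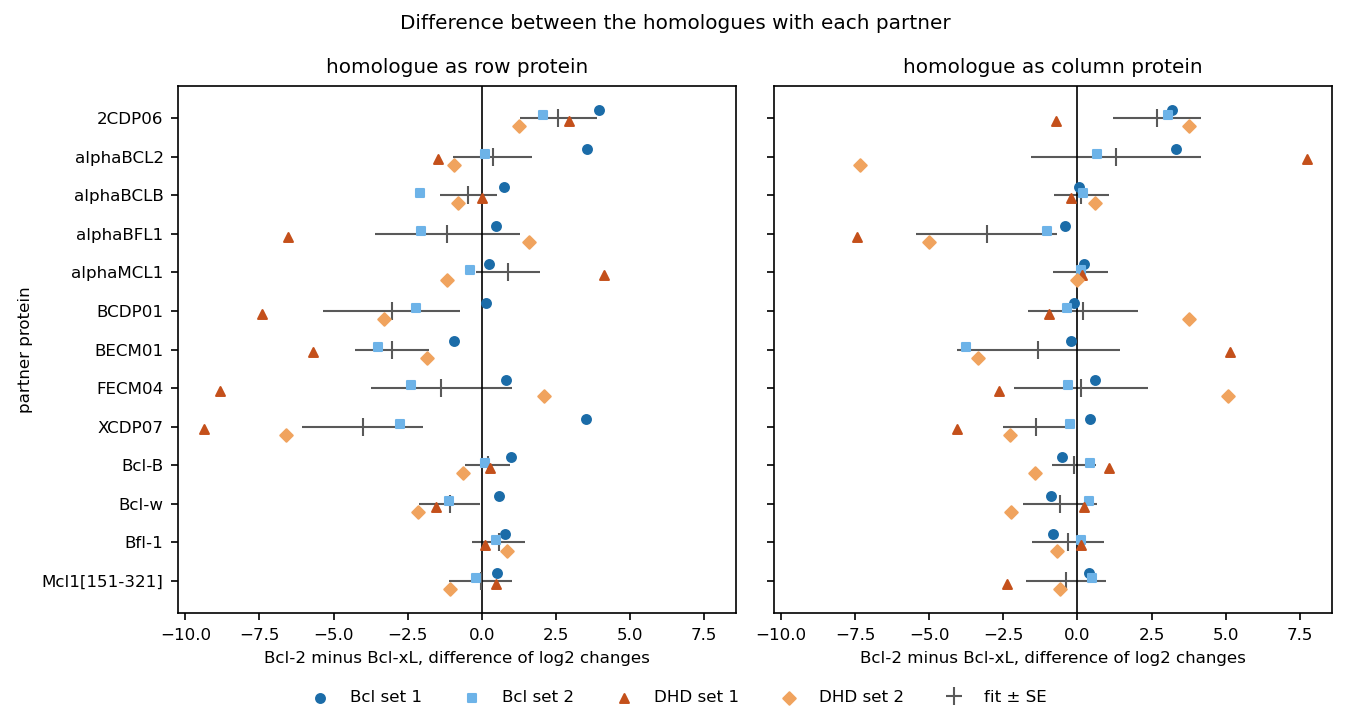
Difference of the log2 changes, Bcl-2 minus Bcl-xL (horizontal axis), with each shared partner (vertical axis), homologue as row protein at left and as column protein at right. Symbols are the 4 library sets and grey bars the fitted difference ± SE; 2CDP06 lies right of 0 and BECM01 left of 0 in all 4 sets at left.

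Both members also met the 322 other proteins of the DHD pool, in 644 ordered pairs each. Most of these were thin. Bcl-2 had 127 pairs with at least 50 reads before selection in both DHD sets, and Bcl-xL 20. Among them 0 were above 0 in both sets for either member, while 1.33% of the 22858 pairs of the DHD pool with as many reads were, so that over so few pairs the members' count is close to the background. The medians in DHD sets 1 and 2 were -2.77 and -3.64 for Bcl-2 and -2.92 and -3.54 for Bcl-xL, against -2.77 and -2.29 over all pairs of these sets, whatever their reads.

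The highest of these pairs for Bcl-2 were high in DHD set 1 alone. Bcl-2 with B_HT_DHD_93 had 6082 reads after and 336 before selection in DHD set 1, a log2 change of 4.11, but 10 after and 61 before in DHD set 2, at -2.46. A_HT_DHD_82 with Bcl-2 lay at 3.86 and -2.31, Bcl-2 with ZCON_2_CC_resurf_B at 3.82 and -4.26, Bcl-2 with ZCON_155_LL_A at 4.72 and -5.59, and Bcl-2 with A_ZCON_154 at 2.56 and -3.48. The lowest for Bcl-2, below 0 in both sets, were DHDr2_00_A with Bcl-2 (-4.20 and -4.92), A_HT_DHD_50 with Bcl-2 (-5.12 and -4.32) and Bcl-2 with B_HT_DHD_24 (-3.89 and -6.32). Bcl-xL showed the same break between sets with ZCON_155_LL_A (2.65 and -5.17) and B_HT_DHD_26 (2.83 and -6.52) as column proteins. Its next were Bcl-xL with A_HT_DHD_75 (-2.39 and -1.39), Bcl-xL with A_HT_DHD_17 (-2.26 and -1.73) and A_HT_DHD_75 with Bcl-xL (-2.39 and -1.85). Its lowest were Bcl-xL with ZCON_2_CC_resurf_cutT2_B (-2.93 and -4.96), B_HT_DHD_61 with Bcl-xL (-3.17 and -5.03) and Bcl-xL with mALb8_cutT2_B (-3.77 and -4.55).

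Tested within a pool, without the library set as a block, 0 of 225 pairs passed in the Bcl pool (0.0%) and 0 of 110004 in the DHD pool (0.0%) in edgeR's quasi-likelihood test. Neither count shows that pairs did not change, since on simulated data the DHD pool fit called none of the raised pairs and the Bcl pool fit none of the less raised ones. At an unadjusted p under 0.05 these fits had 21 higher and 9 lower, and 3849 higher and 3495 lower. DESeq2 called 52 and 7164, but in the DHD pool it left 68247 of the 110004 pairs without an adjusted p. With the replicate block the Bcl pool had 44 pairs, of which 2 enriched pairs held Bcl-2 and 5 held Bcl-xL, and the DHD pool again 0. Between the members, 1 of 663 differences in the DHD pool passed (0.151%), with A_HT_DHD_8 as column protein. It had 0 and 0 reads with Bcl-2 after selection in DHD sets 1 and 2 and 21 and 6 before, and 1209 and 0 with Bcl-xL after and 28 and 2 before. It passed the minimum of reads only through that 1 library of Bcl-xL, where it is high, so the call is a description and supports nothing further. The fitted difference of -12.52 ± 2.59 (adjusted p = 0.00103 in edgeR's test) depends on the fit's handling of zeros. Against a floor of 3 reads per library, the ratio of after to before in DHD set 1 was 302-fold lower with Bcl-2. This value rests on 21 and 28 reads before selection and is no firm bound. DHD set 2 has too few reads to repeat it.

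Whether member pairs passed over the 4 sets depended on Bcl set 2 and on the scaling. Without Bcl set 2 none of the 12 called member pairs passed, while 4 passed without Bcl set 1, 8 without DHD set 1 and 5 without DHD set 2. Calls over all 225 shared pairs fell as well, from 65 to 17, 25, 55 and 39 in that order. Fitted values moved less. Without Bcl set 2 Bcl-xL with BCDP01 was at 4.24 against 4.25, and XCDP07 with Bcl-xL at 3.18 against 3.52. Library size without TMM is, in this fit, the reads of the 15 shared proteins and not the library total. With it 0 member pairs were enriched, against 3 of all 225. For Bcl-2 10 of 29 and for Bcl-xL 11 of 29 were depleted, against 95 of all 225. The median of all 225 moved to -3.53.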

How the data were processed

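Reads per ordered pair of barcoded proteins were deposited as whole-number counts in square matrices, 1 per library, made by the authors. Per the submitters' processing notes counts were compared with DESeq2, and its version, like the barcode matching, is not given in the sources used here. Empty cells of the DHD matrices were read as 0, and the ending _swap on 218 names of DHD set 1 was dropped to match DHD set 2. What this ending means is not stated in the sources used here, and none of the 15 shared proteins carries it, but the comparisons of other DHD proteins between the DHD sets rest on this match. Log2 changes per set used each library's total and 1 added read. Tests used edgeR 4.0.16 and limma 3.58.1 in R 4.3.3 (TMM, robust glmQLFit, glmQLFTest) where the mean was at least 10 reads per library, with a threshold of 0.05 after Benjamini-Hochberg adjustment. An SE is the size of the log2 change over the square root of the F statistic. Plots used Python 3.11.15 and matplotlib 3.10.9. Every fit was run on simulated counts with a smaller rise, a log2 of 4, and a larger one of 8. The DHD pool fit called none of the raised pairs at either rise. With the smaller rise the Bcl pool fit and both fits of the difference between members called none. With the larger rise the Bcl pool fit called 77.5%. The difference fits called 100% over the 4 sets and 68.3% in the DHD pool. Counts of 0 from these fits, and the 1 of the DHD pool difference, therefore carry little information.

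Libraries were grouped by the descriptions, which name the library set and so pair the libraries. Deviations from group means correlated between paired libraries with 0.803 in the Bcl pool, 0.329 in the DHD pool and 0.321 to 0.847 over the 4 sets. The selection fit over 4 sets has the set as a block, and the pool fits leave this pairing out. The main fits between the members have the library as a block and no term for homologue by library set. The common dispersion was 0.515 over the 4 sets, 0.789 in the Bcl pool and 0.688 in the DHD pool.

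The members and lists were chosen with earlier results of these data known. Values are given in full for alphaBCL2, called pairs, partners past the threshold between the members, the 5 highest and 3 lowest partners per member and orientation, and the same ranks per member among other DHD proteins with at least 50 reads before selection in both sets. Pairs described beyond this rule were chosen after their values were seen. Alternatives were DESeq2 1.42.0, library size, other filters, the replicate block, each library or set left out, and other pseudocounts and scalings. Libraries of the other sets were not used here.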

Additional observations from a re-analysis of the deposited data

Results flagged for a closer look

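Among the 56 pairs with a member, 1 had a library set far from the other 3. Bcl-2 with alphaBFL1 was at -3.31 in DHD set 1, while the other sets lay between 0.86 and 1.60. Chance flags about 1 in 20 such groups, so 1 of 56 is no more than chance would give. The difference between Bcl-2 and Bcl-xL with A_HT_DHD_8 as column protein in the DHD pool, -12.52 in edgeR's fit, passed the test of the difference itself and rests on 1209 reads of Bcl-xL after selection in DHD set 1, without which it would not have met the minimum of reads. Without the library before selection of DHD set 1 or of DHD set 2 its adjusted p in edgeR's test was 0.165 or 0.158.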

How the results depend on the processing

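Over the 4 sets 65 pairs changed, against 104 with DESeq2, 98 with library size and 26 with no replicate block, and 17 to 55 with a set left out. Bcl-2 had 2 enriched pairs (9 with DESeq2, 0 with library size, 0 with no replicate block, 0 to 4 with a set left out) and 3 depleted (10 with library size, 0 with no replicate block, 0 to 2). Bcl-xL had 5 enriched (10 with DESeq2, 0 with library size, 0 to 7) and 2 depleted (11 with library size, 0 with no replicate block, 0 to 1). In the pools 0 pairs changed, against 52 (Bcl) and 7164 (DHD) with DESeq2, 44 in the Bcl pool with the replicate block, and 0 to 8 and 0 to 10438 with a library left out. Between the members 0 differences passed over 4 sets, 1 with the replicate block, 1 with median differences subtracted and 0 to 2 with a set left out; in the DHD pool 1 passed and 0 to 59 with a library left out. Library size here is the reads of the pairs entered in the fit, over the 4 sets those of the 15 shared proteins. With it the log2 changes are shifted down by construction, and the cause of the other shifts was not tested. No called value changed sign. Filters on low reads did not move these counts. DESeq2 called all 12 member pairs that edgeR called. In the DHD pool it left 68247 of 110004 pairs without an adjusted p, so its count there is over fewer pairs than edgeR's. The median of 30 to 52 reads per pair before selection limits DHD set 2.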
